A study of Homo sapiens with 10 samples.

Results

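The retinoblastoma protein (Rb) was found at 884 promoters in OVCAR-3 cells treated with the CDK2 inhibitor INX-315 that carried no Rb peak in vehicle-treated cells and were not shared by both treated cultures of the second ovarian cancer line, Kuramochi. These promoters were chosen by peak presence alone. A protein-coding gene was a member if a peak lay within 2000 bp before to 500 bp after any of its transcript starts in both OVCAR-3 INX-315 Rb libraries, in none of the 4 DMSO Rb libraries of either line, and in at most 1 of the 2 Kuramochi INX-315 Rb libraries. Of 19970 protein-coding genes on chromosomes 1 to 22 and X (20046 with Y and the mitochondrial genome, which held no member), 10299 had no promoter peak under DMSO, and the 884 members were 8.58% of those. The same 10299 genes held 1110 promoters gained in both lines (10.8%) and 571 gained in Kuramochi only by the mirrored rule (5.54%). Presence, height and position of peaks in the 8 Rb libraries are therefore given as descriptions, with no test, because the rule used them.

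Rb was profiled by CUT&RUN, in which an antibody directs a nuclease to cut and release the DNA around a bound protein. OVCAR-3 and Kuramochi, both established human ovarian cancer lines without an engineered allele (genotype given as WT), received DMSO or 300 nM INX-315 for 2 days, with 2 Rb libraries from separate cultures per line and treatment. A mouse IgG2a library from DMSO-treated cells of each line gave the background. Each Rb library was reduced to its own list of peaks, so a promoter without a peak has no value in that library, and a missing peak does not show that Rb was absent. Peak lists hold no expression values, and the identity of each line was not checked against marker genes.

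Rb restrains E2F transcription factors at cell cycle promoters while it is hypophosphorylated, and cyclin-dependent kinases, CDK2 with cyclin E among them, release it by phosphorylation. Many E2F and mitotic promoters carry an E2F site or a cell cycle genes homology region (CHR), the latter bound by the DREAM complex that contains the Rb relatives p107 and p130. INX-315 is a CDK2 inhibitor, and OVCAR-3 carries an amplified cyclin E1 gene.

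The DNA under the peaks is shown for 9 members on which the results turn, as the 200 bp around the summit in OVCAR-3 INX-315 replicate 2, read 5′ to 3′ on the gene's strand from hg38. PRICKLE2 (chr3:64445222-64445421 on the minus strand) stood among the highest members without a Kuramochi peak, and SCN4A (chr17:63961687-63961886 on the minus strand) had the highest mean rank of all. PLK1 (chr16:23678805-23679004 on the plus strand), BUB1 (chr2:110677900-110678099 on the minus strand), SGO1 (chr3:20186210-20186409 on the minus strand), CDK7 (chr5:69234974-69235173 on the plus strand) and CCNL1 (chr3:157160271-157160470 on the minus strand) are the cell cycle kinases, checkpoint proteins and cyclins described further on. PGR (chr11:101127508-101127707 on the minus strand) encodes the progesterone receptor, and SLC44A3 (chr1:94820448-94820647 on the plus strand) was the highest member whose window held an E2F motif. Capitals mark the first of these motifs found in a window, on either strand, in the order E2F (TTTCCCGC, TTTGGCGC, TTTCGCGC or TTTGCCGC), CHR (TTTGAA) and SP1 (GGGCGG). The E2F letters are marked in SLC44A3, the CHR letters in PLK1, and the SP1 letters in SCN4A, SGO1, CCNL1 and PGR. PRICKLE2, BUB1 and CDK7 held none of the 3.
PRICKLE2: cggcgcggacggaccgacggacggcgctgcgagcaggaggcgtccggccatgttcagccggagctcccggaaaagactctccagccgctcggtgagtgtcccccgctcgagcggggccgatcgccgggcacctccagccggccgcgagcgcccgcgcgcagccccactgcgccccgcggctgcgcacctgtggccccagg
SCN4A: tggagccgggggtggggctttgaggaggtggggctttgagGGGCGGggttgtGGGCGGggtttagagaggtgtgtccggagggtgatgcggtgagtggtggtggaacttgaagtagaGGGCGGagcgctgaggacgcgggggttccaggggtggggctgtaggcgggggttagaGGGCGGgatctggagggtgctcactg
PLK1: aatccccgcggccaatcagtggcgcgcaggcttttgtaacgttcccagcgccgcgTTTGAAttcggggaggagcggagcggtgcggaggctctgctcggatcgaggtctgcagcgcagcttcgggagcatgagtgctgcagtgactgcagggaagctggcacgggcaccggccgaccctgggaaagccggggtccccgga
BUB1: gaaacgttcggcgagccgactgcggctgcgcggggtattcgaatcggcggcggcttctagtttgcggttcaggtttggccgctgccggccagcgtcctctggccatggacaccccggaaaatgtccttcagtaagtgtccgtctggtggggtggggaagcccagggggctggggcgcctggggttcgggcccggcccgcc
SGO1: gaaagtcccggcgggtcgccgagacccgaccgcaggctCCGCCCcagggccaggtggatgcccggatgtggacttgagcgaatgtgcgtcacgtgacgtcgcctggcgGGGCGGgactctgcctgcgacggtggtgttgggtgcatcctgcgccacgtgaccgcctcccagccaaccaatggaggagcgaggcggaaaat
CDK7: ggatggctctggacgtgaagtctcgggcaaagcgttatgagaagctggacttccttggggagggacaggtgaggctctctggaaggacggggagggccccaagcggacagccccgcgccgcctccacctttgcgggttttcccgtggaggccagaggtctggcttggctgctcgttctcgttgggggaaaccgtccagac
CCNL1: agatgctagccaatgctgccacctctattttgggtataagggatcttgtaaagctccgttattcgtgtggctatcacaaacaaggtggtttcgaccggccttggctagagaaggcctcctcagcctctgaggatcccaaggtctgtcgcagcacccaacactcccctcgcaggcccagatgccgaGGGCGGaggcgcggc
PGR: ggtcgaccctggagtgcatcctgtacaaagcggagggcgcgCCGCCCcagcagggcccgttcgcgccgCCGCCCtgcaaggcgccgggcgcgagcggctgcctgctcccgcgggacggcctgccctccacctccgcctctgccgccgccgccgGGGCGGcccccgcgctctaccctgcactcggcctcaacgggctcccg
SLC44A3: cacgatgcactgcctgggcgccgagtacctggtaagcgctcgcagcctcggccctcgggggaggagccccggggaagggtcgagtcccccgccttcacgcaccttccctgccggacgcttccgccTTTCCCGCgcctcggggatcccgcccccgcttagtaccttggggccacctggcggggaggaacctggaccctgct

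The 9 windows held from 10 (CCNL1) to 32 (PRICKLE2) CpG dinucleotides. Over all 884 members the same 200-bp window held a median of 19 CpG, against 21 at promoters gained in both lines and 20 at the 3762 promoters with a peak in all 8 Rb libraries. The E2F motif was found in 17 member windows, or 1.92% (95% Wilson interval 1.20 to 3.06%), against 2.79% at promoters gained in both lines and 6.22% at promoters bound in every Rb library. CHR letters were present in 2.60% of member windows, CCAAT letters in 13.8% and SP1 letters in 61.1%. Promoters gained in both lines were close to members, with CHR in 2.70%, CCAAT in 13.6% and SP1 in 62.5% of the same windows. Promoters bound in every Rb library held CHR in 3.91%, CCAAT in 24.4% and SP1 in 64.9%. SLC44A3 and BBS12, a chaperonin-like protein of the primary cilium, were among the 17 members with the E2F letters.

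Member peaks were low in their own lists. The peak caller gave each peak a fold enrichment, the fragments at the summit over the local background, with 1 added to each. The added 1 lowers the ratio, and lowers it more where the background is smaller. Fold enrichments of libraries of different depth are therefore not on 1 scale. As a multiple of the library's genome mean of fragments per base, the median member summit was 26.1 in OVCAR-3 INX-315 replicate 1 and 30.9 in replicate 2. In OVCAR-3 INX-315 replicate 1 the members had a median fold enrichment of 5.73 (middle 50%, 4.59 to 6.91), from a median of 8 fragments at the summit. In replicate 2 the median was 8.22 (6.24 to 11.1), from a median of 13 fragments. On a scale where 100 is the strongest peak of a library, the median member stood at 24.5 in replicate 1 and 38.7 in replicate 2, and 90.7% and 74.9% of members were in the weaker part of the list, at or under 50. Promoters gained in both lines had medians of 6.61 and 11.2 in the same libraries, and promoters bound in all 8 Rb libraries had 18.9 and 32.9. Promoters gained in Kuramochi only were lower than members, at 4.56 (12 promoters with a peak) and 6.69 (399 promoters). Members that also had 1 Kuramochi peak were in turn the lowest of the 4 classes by fold enrichment in the Kuramochi libraries. Their median was 5.31 in Kuramochi INX-315 replicate 1 (384 promoters) and 4.93 in replicate 2 (106 promoters). As multiples of the genome mean these medians were 19.8 and 27.8, so the replicates stood in the other order. Promoters gained in Kuramochi only also had a median multiple of 27.8 in replicate 2.

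**Figure D1:**
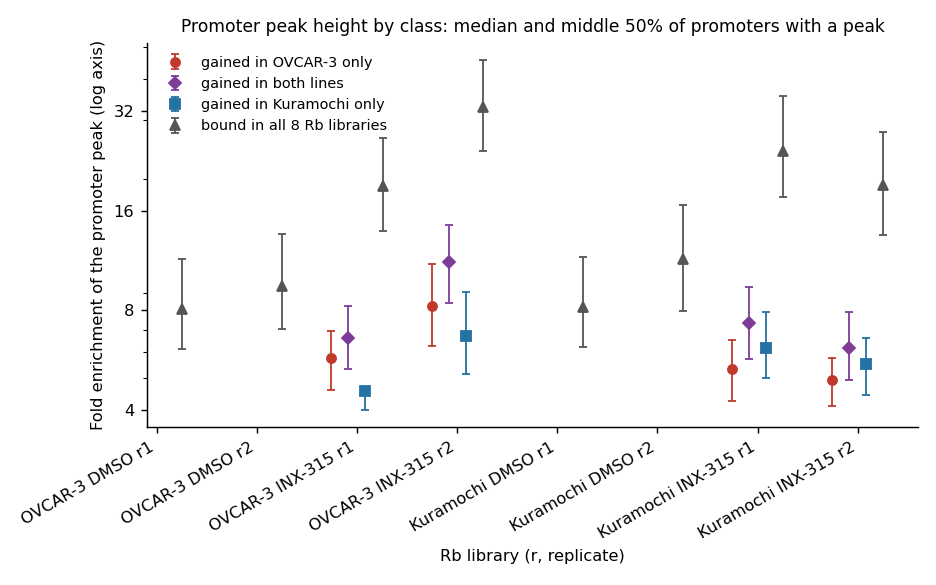
Fold enrichment of the promoter peak (log axis) in each of the 8 Rb libraries, as the median (symbol) and the middle 50% (bars) of the promoters of each class that had a peak there. Promoters gained in OVCAR-3 only had medians of 5.73 and 8.22 in the OVCAR-3 INX-315 replicates, under those gained in both lines (6.61 and 11.2) and under those bound in all 8 Rb libraries (18.9 and 32.9).

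The number of members rested on how many peaks each list held. OVCAR-3 INX-315 lists held 13031 and 17281 peaks and the DMSO lists of both lines 5221 to 8794. When every Rb library was limited to its 5221 strongest peaks by p-value, 150 promoters met the rule, and 3 of them were among the 884: SCN4A, SPATA6 and LONRF1. With a q-value of at most 0.001 in every library, 1123 promoters met it, and 720 were among the 884. Without OVCAR-3 INX-315 replicate 1, 1967 promoters met the rule on the remaining replicate, since 1083 further promoters had a replicate 2 peak alone, and 71 had a replicate 1 peak alone and would be added without replicate 2. List length is not sequencing depth. The genome mean was 0.495 and 0.501 fragments per base in the OVCAR-3 DMSO libraries, against 0.307 and 0.421 under INX-315. In the Kuramochi DMSO libraries it was 0.445 and 0.380. Whether a longer DMSO list, called at a weaker threshold, would hold member peaks was not tested.

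The rule asks for a peak of both OVCAR-3 INX-315 replicates in each member promoter, so how close the peaks lie is in part set by it. Promoters with a peak in 1 replicate alone are outside this comparison. The peaks of the 2 replicates overlapped at 94.1% of members, with a median of 110.5 bp between their summits. That distance was 94 bp at promoters gained in both lines and 62 bp at promoters bound in all 8 Rb libraries. Fold enrichment was ranked less alike, with a Spearman's rho of 0.45 across the 884 members against 0.58 and 0.85 in those classes. These correlations are across genes that share libraries and in part peaks, and genes are not independent replicates. PTX3, the gene of a secreted pentraxin of innate immunity, was named after its values were seen: its fold enrichment was 4.41 in replicate 1 and 31.9 in replicate 2.

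**Figure D2:**
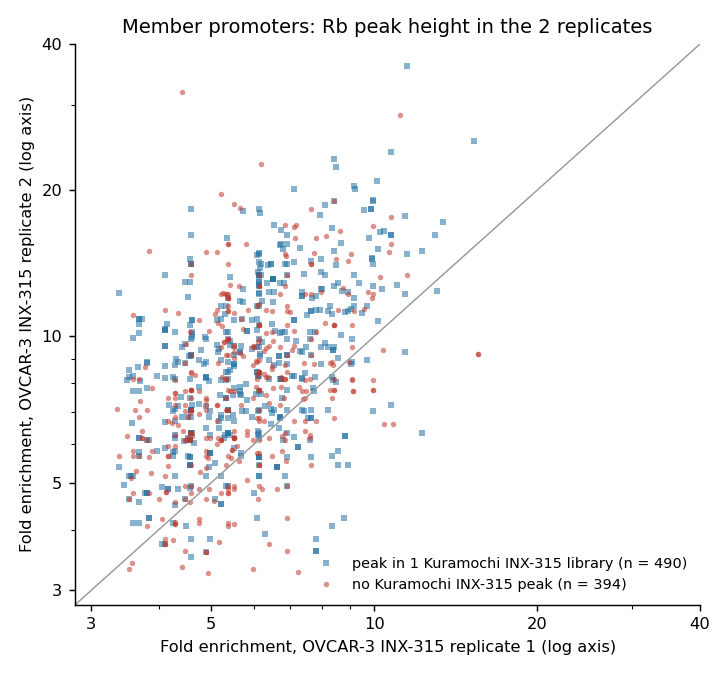
Fold enrichment of each member's promoter peak in OVCAR-3 INX-315 replicate 1 (x axis) and replicate 2 (y axis), both log axes, by whether 1 Kuramochi INX-315 library had a peak there (blue squares, n = 490) or none had (red circles, n = 394); the line marks equal values. Most points lie above the line, the 2 sets overlap throughout, and the vertical stripes are small whole numbers of fragments.

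Of the 884 members, 394 (44.6%) had no peak in either Kuramochi INX-315 library and 490 (55.4%) had a peak in 1. That library was replicate 1 at 384 promoters and replicate 2 at 106. The replicates differed in depth, at a genome mean of 0.405 and 0.216 fragments per base. The Kuramochi peak overlapped the OVCAR-3 replicate 2 peak at 444 of the 490, with a median of 113.5 bp between summits. The mirrored class had the same form, since 399 of the 571 promoters gained in Kuramochi only had a peak in OVCAR-3 INX-315 replicate 2 and 12 had a peak in replicate 1, whose genome means were 0.421 and 0.307 fragments per base. The part of depth in the division between the lines was not tested.

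The 394 members without a Kuramochi peak were a little lower in OVCAR-3 than the other 490. Their median fold enrichment was 5.51 in replicate 1 and 7.74 in replicate 2, against 6.07 and 8.75. Kuramochi INX-315 peaks within 5 kb of the promoter but outside it were found at 37 of the 394 in replicate 1 and 31 in replicate 2.

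The IgG2a lists held no peak in a member promoter or within 5 kb of one, in either line. They held 257 and 195 peaks in all, of which 25 and 12 lay on chromosomes 1 to 22 and X, too few for an overlap to be likely. Both came from DMSO-treated cells, so their lists are no control for peaks under INX-315. DMSO Rb peaks lay within 5 kb of a member promoter, but outside it, at 28 and 46 members in OVCAR-3 and at 22 and 41 in Kuramochi.

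Members without a Kuramochi peak are described first, as the 10 of highest mean rank. SHISA9, an auxiliary protein of AMPA glutamate receptors, had a fold enrichment of 10.7 in OVCAR-3 INX-315 replicate 1 and 17.6 in replicate 2, from 13 and 24 fragments. PRICKLE2, a planar cell polarity protein, had 10.7 and 15.5, with its replicate 2 summit −77 bp from the nearest start and −219856 bp from the canonical one. FAM110C, a protein of the centrosome, had 9.95 and 16.9. All 3 lay higher in replicate 2, as did most members, 630 of which had the higher summit relative to the genome mean there.

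PDE4D, a phosphodiesterase that degrades cyclic AMP, had a fold enrichment of 8.42 in replicate 1 and 19.01 in replicate 2. The linker histone gene H1-3 had 11.5 and 13.4, and RSPO2, which encodes a secreted enhancer of WNT signalling, had 10.6 and 14.9. SLC35G2, of the solute carrier family, and KCNH7, a voltage-gated potassium channel, went the other way, with 15.6 and 15.5 in replicate 1 against 9.18 in replicate 2 for each. LONRF1 had 11.2 and 28.5, and C4orf51, whose peak lay 53030 bp from the canonical start, 10.3 and 13.3.

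**Figure D3:**
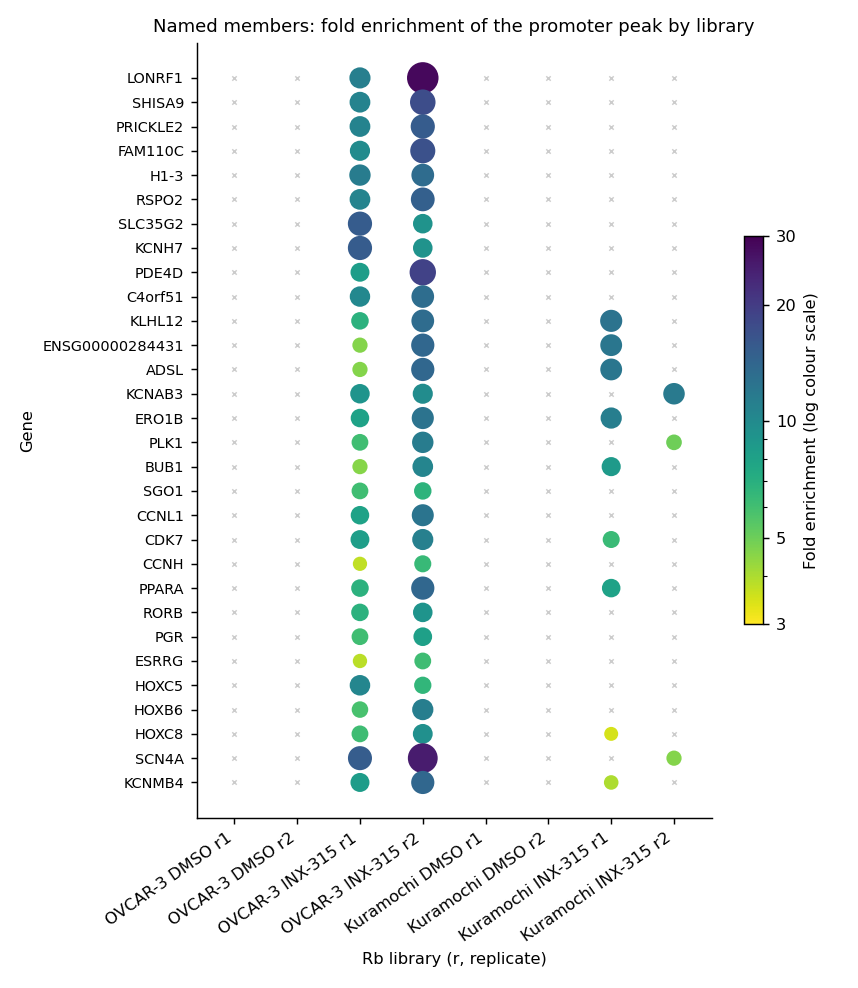
Fold enrichment of the promoter peak of named members (rows) in each of the 8 Rb libraries (columns), by dot size and colour on a log scale; a grey cross is a library without a peak. The 10 rows from LONRF1 to C4orf51 are the highest members without a Kuramochi peak, the next 5 have the strongest Kuramochi peak, and the rest are members of the cell cycle, nuclear receptor, HOX and ion channel groups. Empty DMSO columns follow from the rule.

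Among members with 1 Kuramochi peak, the Kuramochi value could exceed the lower OVCAR-3 value. These fold enrichments come from libraries of different depth and are not on 1 scale. KLHL12, a substrate adaptor of the CUL3 ubiquitin ligase, had 6.89 and 13.4 in OVCAR-3 and 12.5 in Kuramochi INX-315 replicate 1. ADSL, a purine synthesis enzyme, shared its peak with an overlapping unnamed gene and had 4.59 and 14.1 in OVCAR-3 and 12.1 in Kuramochi replicate 1. ERO1B, an oxidoreductase of the endoplasmic reticulum, had 7.96, 12.5 and 11.3 in the same 3 libraries. KCNAB3, a potassium channel subunit, had 9.11 and 9.86 in OVCAR-3 and 11.7 in Kuramochi replicate 2, with a summit at −2322 bp from its start and only the edge of the peak inside the promoter. At these 5 genes the separation of the lines rested on the other Kuramochi INX-315 library having no peak.

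At the lower end, THSD7A had a fold enrichment of 3.53 and 3.31 from 7 fragments in each OVCAR-3 replicate. The metalloprotease gene ADAM8 had 3.56 and 3.41, and ARMCX5 had 4.40 and 3.35. ZNF140 and ZNF81, both zinc finger genes, had 4.06 and 3.74, and 3.59 and 4.12, with a Kuramochi replicate 1 peak of 4.48 and 7.12. Some promoters that missed the rule by 1 library were far higher. TTC9B had 51.5 and 82.9 under INX-315 but also a DMSO replicate 2 peak of 19.8, and RGS7, a regulator of G protein signalling, had 16.1 and 32.04 with a DMSO replicate 1 peak of 5.34. ELOVL6, a fatty acid elongase, had 26.8 and 52.1 in OVCAR-3 and 19.2 and 17.3 in both Kuramochi INX-315 libraries. In all, 275 promoters would have been members but for 1 OVCAR-3 DMSO peak and 82 but for 1 Kuramochi DMSO peak.

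No E2F cell cycle gene was a member: none of the 56 examined lacked a DMSO peak, and 49 had a peak in all 8 Rb libraries. Of 53 mitotic genes 9 had no DMSO peak, and 3 of those (33.3%) were members, 4 were gained in both lines and 2 in Kuramochi only. Over all promoters without a DMSO peak the shares were 8.58, 10.8 and 5.54%, and counts this small are descriptions. PLK1, the polo-like kinase of mitotic entry, had a fold enrichment of 6.07 in OVCAR-3 INX-315 replicate 1 and 11.6 in replicate 2, and 4.98 in Kuramochi replicate 2. BUB1, a spindle checkpoint kinase, had 4.56 and 10.6 in OVCAR-3 and 8.65 in Kuramochi replicate 1. SGO1, which protects centromeric cohesin, had 6.07 and 6.79 and no Kuramochi peak. Their summits lay 16 bp and 28 bp after the start at PLK1 and BUB1 and 104 bp before it at SGO1, and the CHR letters printed above lie within the PLK1 window.

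Among 43 cyclin-dependent kinases, cyclins and inhibitors, 12 had no DMSO peak, and 3 of these (25%) were members, beside 8.58% of all such promoters. CDK7 and its partner cyclin H (CCNH), which form the kinase that activates other cyclin-dependent kinases, were both members. CDK7 had 8.35 and 11.1 in OVCAR-3 and 6.33 in Kuramochi replicate 1, and CCNH had 3.73 and 6.38 from 4 and 9 fragments, with no Kuramochi peak. CCNL1, a cyclin of transcription and splicing kinases, had 7.96 and 12.4 in OVCAR-3 alone. A further 3 of the 12 were gained in both lines and 1 in Kuramochi only. Of 31 Rb family and partner genes and 38 homologous recombination and Fanconi genes, 8 and 3 had no DMSO peak, and no member was among them.

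Hormone and nuclear receptor genes gave 5 members. Of 48 nuclear receptor genes 23 had no DMSO peak, and 4 of these (17.4%) were members against 3 gained in both lines and 0 in Kuramochi only. These small counts stand beside 8.58, 10.8 and 5.54% of all promoters without a DMSO peak. PPARA, the lipid-sensing receptor, had 6.89 and 14.1 in OVCAR-3 and 7.97 in Kuramochi replicate 1. RORB had 6.89 and 9.15, PGR 6.07 and 8.16, and ESRRG 3.80 and 6.12, all without a Kuramochi peak. PGR had its summit 520 bp before the nearest start and 2205 bp after the canonical one. The ESRRG peaks of the replicates lay at different starts of that gene, so the replicates do not repeat 1 site there. Of 49 oestrogen response genes 21 had no DMSO peak and 2 were members, PGR and XBP1, a transcription factor of the unfolded protein response, which had 7.50 and 11.1 in OVCAR-3 and 3.97 in Kuramochi replicate 1.

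Of 28 p53 target genes 6 had no DMSO peak, and 3 were members. ZMAT3, an RNA-binding protein, had 5.64 and 9.27 in OVCAR-3 and 5.98 in Kuramochi replicate 1. SFN, which encodes 14-3-3σ, had 5.36 and 9.15, and TNFRSF10B, a death receptor, had 7.79 and 6.69, both without a Kuramochi peak. None of the 6 was gained in both lines and 1 was gained in Kuramochi only. Counts this small are descriptions, beside the 8.58% of all promoters without a DMSO peak.

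Signalling lists held few members by count. Their shares of promoters without a DMSO peak ran from 8.70 to 15.8%, beside 8.58% over all such promoters. Of 77 WNT, NOTCH, Hedgehog and TGF-β pathway genes, 19 had no DMSO peak, and the members were the ligand genes DLL3, TGFB1 and WNT4. DLL3 had 5.23 and 8.25 in OVCAR-3 alone, TGFB1 had 5.22 and 6.87 with 7.08 in Kuramochi replicate 1, and WNT4 had 4.26 and 5.77 with 6.76 in Kuramochi replicate 1. Of 69 receptor tyrosine kinase and RAS pathway genes, 19 had no DMSO peak, and the ephrin receptor gene EPHB2 (5.36 and 5.66 in OVCAR-3 alone) was among the members. Among 48 interferon response and antigen presentation genes, 23 without a DMSO peak, the receptor gene IFNGR1 (7.34 and 12.4, with 9.96 in Kuramochi replicate 1) was among the members.

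Of 36 epithelial and ovarian lineage genes 13 had no DMSO peak, and CDH3, which encodes P-cadherin, was the member, with 8.77 and 12.6 in OVCAR-3 alone. SUCLG2, a subunit of succinate-CoA ligase, was the member among 56 mitochondrial fuel metabolism genes (12 without a DMSO peak), with 7.69 and 12.01 in OVCAR-3 and 5.69 in Kuramochi replicate 1. UBA3, the catalytic subunit of the NEDD8-activating enzyme, was the member among 45 cullin, neddylation and F-box genes (8 without a DMSO peak), with 6.12 and 13.3, and 5.69 in Kuramochi replicate 1. Apoptosis genes had 9 of 30 without a DMSO peak and no member. Counts in these lists are small and stand beside the 8.58% of all promoters without a DMSO peak.

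Gene families defined by symbol gave larger counts. Over all promoters without a DMSO peak, 8.58% were members, 10.8% were gained in both lines and 5.54% in Kuramochi only. Ion channel genes had 128 of 169 without a DMSO peak, and 19 of the 128 (14.8%) were members, against 8 gained in both lines and 9 in Kuramochi only. SCN4A, the sodium channel of skeletal muscle, had the highest mean rank of all members, with 15.3 and 25.2 in OVCAR-3 and 4.58 in Kuramochi replicate 2. KCNH7 (above) and KCNMB4, a regulatory subunit of calcium-activated potassium channels with 8.51 and 14.03 in OVCAR-3 and 3.99 in Kuramochi replicate 1, came next, and 12 of the 19 had no Kuramochi peak. SCN4A had its summit 94 bp before its nearest start but 11131 bp after the canonical one.

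HOX cluster genes had 21 of 39 without a DMSO peak, and 5 of these (23.8%, beside 8.58% of all such promoters) were members, against 2 gained in both lines and 3 in Kuramochi only. HOXC5 had 10.4 and 6.61 and HOXB6 5.84 and 11.3 in OVCAR-3 alone, and HOXC8 had 6.12 and 9.52 with 3.48 in Kuramochi replicate 1. At HOXB6 the replicate 2 summit lay −996 bp from the nearest start and 6856 bp from the canonical one. The other developmental homeobox, paired-box and related genes gave 10 members of 110 (9.09%), led by NKX3-2 with 12.2 and 6.34, TBX1 with 5.65 and 18.4 and SOX11 with 6.83 and 12.7, of which NKX3-2 had a Kuramochi replicate 1 peak of 4.65. At TBX1 the replicate 2 summit lay −3948 bp from the canonical start. Zinc finger genes gave 28 of 281 (9.96%), fewer than the 57 gained in both lines and the 48 gained in Kuramochi only. ZNF777 led them with 9.59 and 18.2 in OVCAR-3 and 5.31 in Kuramochi replicate 1.

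Kinesin and dynein genes gave 7 members of 33 without a DMSO peak (21.2%), against 5 gained in both lines and 2 in Kuramochi only. The motor genes KIF5C (8.37 and 16.7) and KIF3B (7.94 and 17.8) led them, with 7.96 and 6.56 in Kuramochi replicate 1. Collagen, laminin and integrin genes gave 7 of 57 (12.3%), against 1 gained in both lines and 5 in Kuramochi only, and were led by the integrin gene ITGA2 with 8.51 and 22.3, and 4.48 in Kuramochi replicate 1. Protein phosphatase genes gave 9 of 58 (15.5%), RAB and ARF genes 6 of 38 (15.8%), and autophagy and vacuolar sorting genes 5 of 20 (25%). Over all promoters without a DMSO peak, 8.58% were members, 10.8% were gained in both lines and 5.54% in Kuramochi only. Counts this small are descriptions. RPL6 and PTPN11, in the ribosomal protein and phosphatase groups, shared 1 peak, with 5.82 and 10.3 in OVCAR-3. Its replicate 2 summit lay −38 bp from the nearest PTPN11 start and −236 bp from the nearest RPL6 start. The canonical RPL6 start was farther, with the summit at −9469 bp from it.

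The remaining families lay on both sides of the 8.58% of all promoters without a DMSO peak. Solute carrier genes gave 19 of 226 (8.41%), 12 of them without a Kuramochi peak. Oxidative phosphorylation genes gave 4 of 44 (9.09%) against 15 gained in both lines, and mitochondrial ribosomal protein genes 2 of 27 (7.41%) against 8. RNA polymerase, Mediator and general factor genes gave 2 of 48 (4.17%), and tripartite motif and RNF ubiquitin ligase genes 3 of 81 (3.70%). Higher shares came from smaller groups, with 4 of 16 splicing factor (25%), 3 of 13 proteasome (23.1%), 2 of 11 ciliary transport (18.2%), 2 of 17 ZBTB and KLF/SP (11.8%) and 5 of 41 cytosolic ribosomal protein genes (12.2%). Transmembrane protein (TMEM) genes, grouped by name alone, gave 18 of 120 (15%), against 12 gained in both lines. Aminoacyl-tRNA synthetase genes gave 2 of 13 (15.4%) against 8 gained in both lines, DEAD-box and DEAH-box helicase genes 2 of 20 (10%) against 6, and histone lysine methyltransferase and demethylase genes 2 of 18 (11.1%) against 6. The rest gave 4 of 38 G protein and adhesion receptor (10.5%), 5 of 77 cadherin and protocadherin (6.49%) and 1 of 27 histone genes (3.70%). None of 416 olfactory receptor genes and none of 145 keratin and keratin-associated genes without a DMSO peak was a member or was gained in either other class.

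The summit lay at the transcript start in most members. Its median position in replicate 2 was 19 bp after the nearest start (middle 50%, 90 bp before to 136 bp after). It was within 500 bp of a start at 807 members, or 91.3% (95% Wilson interval 89.2 to 93.0%), against 93.9% at promoters gained in both lines and 92.5% at promoters bound in all 8 Rb libraries. Measured to the Ensembl canonical start alone, 78.6% were within 500 bp, and 90 members (10.2%) had the summit more than 2000 bp away from it. The 884 members rested on 830 distinct replicate 2 peaks, of which 49 served 103 members at shared or overlapping promoters. The peak of 30 members also lay in the promoter of a protein-coding gene outside the set, and in 21 of those that gene had a DMSO peak.

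Promoter sequence was not used by the rule. In the 300 bp around the canonical start the median member had 26 CpG (middle 50%, 18 to 33), against 28 at promoters gained in both lines, 29 in Kuramochi only, 29 bound in all 8 Rb libraries, 5 without any Rb peak and 23 over all genes. Of promoters without a DMSO peak, 1.22% of those with 0 to 4 CpG were members, 3.84% with 5 to 14, 14.4% with 15 to 24, 18.2% with 25 to 34 and 14.04% with 35 or more. Promoters gained in both lines had 20.9% and 27.6% in the last 2 ranges, and those gained in Kuramochi only 12.3% and 13.9%. The classes exclude each other, since a promoter gained in both lines cannot be a member. The lower share of members in the richest range therefore does not show fewer gains in OVCAR-3 there. In this wider window the E2F motif was in 2.49% of members, 3.69% of those gained in both lines and 5.25% in Kuramochi only. It was in 9.36% of those bound in all 8 Rb libraries, 1.78% of those without any Rb peak and 4.39% of all genes. CCAAT letters were in 30.7% of members, near the 29.7% of promoters gained in both lines and 32.05% in Kuramochi only. They were in 44.02% of promoters bound in all 8, 36.6% without any Rb peak and 36.0% of all genes.

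**Figure D4:**
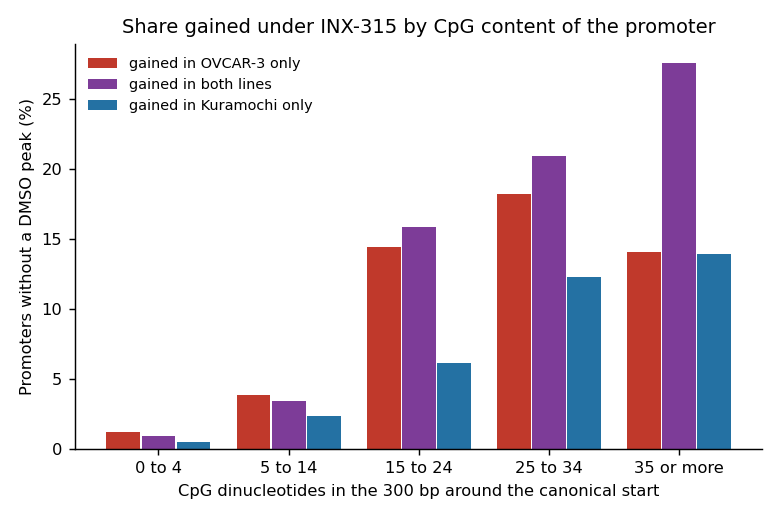
Percent of the promoters without a DMSO peak that were gained in OVCAR-3 only, in both lines or in Kuramochi only (bars), by the number of CpG dinucleotides in the 300 bp around the canonical transcript start (x axis). Members rose from 1.22% in the poorest to 18.2% with 25 to 34 CpG and stood at 14.04% in the richest, where promoters gained in both lines reached 27.6%. The classes exclude each other by the rule.

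Member genes had a longer median span than all genes, at 44.2 kb (middle 50%, 16.4 to 114.3 kb), against 41.2 kb for those gained in both lines, 30.9 kb in Kuramochi only, 34.5 kb bound in all 8 Rb libraries, 13.5 kb without an Rb peak and 27.5 kb over all genes. Members without a Kuramochi peak had a median of 51.4 kb, and 136 of the 394 (34.5%) spanned more than 100 kb. That share was 22.9% for members with 1 Kuramochi peak and 24.2% for genes gained in both lines. It was 11.0% without an Rb peak and 18.3% of all genes. A divergent protein-coding partner, with its canonical start within 1000 bp upstream on the other strand, was present at 39 members (4.41%). It was present at 10.1% of promoters gained in both lines, 8.23% in Kuramochi only and 21.5% bound in all 8. The share was 1.19% without an Rb peak and 9.49% of all genes. Gene structure enters the rule, since a peak at any annotated transcript start counts: the median gene had 6 starts among members, 7 among those gained in both lines, 8 among those bound in all 8 Rb libraries and 3 among those without an Rb peak. The rule also leaves out a gene whose shared promoter has a DMSO peak, in the same way for each gained class.

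Members were found on every chromosome from 1 to 22 and X. Chromosome 18 had the highest share, with 24 of 141 promoters without a DMSO peak (17.02%), against 4.96% gained in Kuramochi only. Chromosomes 4, 10, 7 and 3 followed with 12.5, 11.4, 11.2 and 10.9%, the last from 57 of 525 promoters (95% Wilson interval 8.47 to 13.8%). Shares were lowest on chromosomes 21 and 11, at 4.76 and 4.84%. On chromosome 13 the order of the lines was turned, with 6.94% gained in OVCAR-3 only and 16.2% in Kuramochi only, and likewise on chromosome 16 (5.23 and 10.9%), chromosome 19 (5.75 and 8.69%) and, by little, chromosome 11 (4.84 and 5.11%). Chromosome 15 had 7.02% for each line.

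**Figure D5:**
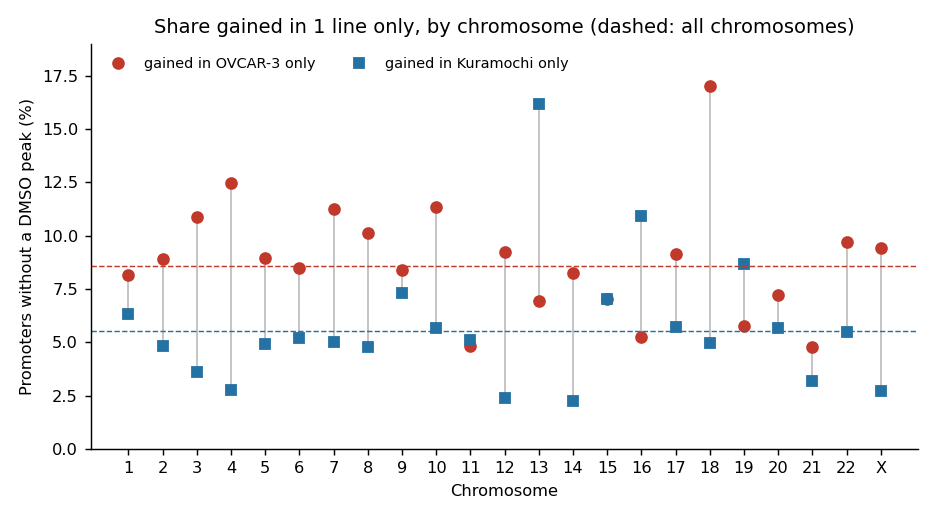
Percent of the promoters without a DMSO peak that were gained in OVCAR-3 only (red circles) or in Kuramochi only (blue squares) on each chromosome; dashed lines give the percent over all chromosomes, 8.58 and 5.54. Chromosome 18 stands highest for OVCAR-3 at 17.02%, and chromosomes 13, 16, 19 and 11 are higher for Kuramochi, at 16.2, 10.9, 8.69 and 5.11%.

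The local background that the peak caller set at each peak also differed between the lines along the genome. Over 173 bins of 10 Mb, the 35 bins with the lowest ratio of OVCAR-3 to Kuramochi background held 6.96% members and 8.74% promoters gained in Kuramochi only. From the lowest to the highest of 5 groups of bins, members made up 6.96, 6.44, 7.15, 11.2 and 9.22% of promoters without a DMSO peak, and promoters gained in Kuramochi only 8.74, 5.75, 5.82, 3.74 and 4.06%. Promoters gained in both lines stayed between 9.86 and 11.7%. Spearman's rho between the log2 ratio and the share of members was 0.22 over the 173 bins, which share libraries. By chromosome the pattern was mixed. Chromosome 18, with the highest share of members, had a log2 ratio of 0.51 and chromosome 13 one of −0.39, but chromosome 21 had the highest ratio, 0.64, with the lowest share of members (4.76%), and chromosome 8 the lowest, −0.68, with 10.2% members and 4.78% gained in Kuramochi only. The part of this background, or of the number of DNA copies in each line, in the shares was not tested.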

How the data were processed

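Rb and IgG2a CUT&RUN libraries were compared through the peak lists that the authors deposited, 1 list per library. The authors aligned reads to hg38 with Bowtie2 v.2.3.4.1 and called peaks with MACS2 v.2.2.7.1 against the IgG2a control at a q-value of at most 0.05. The deposited values used here were the fold enrichment ratio at the summit and the −log10 p-value and q-value of each peak; reads and spike-in were not used here. Whole fragments at a summit and the local background were recovered from the fold enrichment and p-value, with a unique solution for at least 98.6% of peaks in every Rb library. The lowest recovered background of a list, taken as its genome mean, ran from 0.216 to 0.501 fragments per base. Promoters were taken from GENCODE release 44 (at least 1 bp of overlap), with the highest peak used per gene and library. Sequences were read from hg38. Analyses used Python 3.11.15, pandas 2.3.3, SciPy 1.17.1 and pysam 0.24.0, and scripts were tested on simulated data.

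The members and gene lists were chosen with earlier results of these data known. Named genes were the 10 members without a Kuramochi peak of highest mean rank of fold enrichment, the 5 with the strongest Kuramochi peak, the 5 of lowest rank, members of the lists, the 3 highest of each family and the 3 highest promoters that missed the rule by 1 library; some of these are not reported here. No test was made, because peak presence in all 8 Rb libraries set the members. Intervals cover counting error only and take genes as independent, although some share a peak and all share libraries. Alternatives were a stricter q-value, equal numbers of peaks, other promoter definitions and leaving out each library.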

Additional observations from a re-analysis of the deposited data

How the results depend on the processing

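No paired analysis was possible because no result comes from a test. With the 5221 strongest peaks in each Rb library there were 150 members, of which 77.3% had no Kuramochi peak, with a median fold enrichment of 17.9 (7.19 as reported, the mean of both OVCAR-3 INX-315 libraries per promoter), an E2F share of 4.67% and a chromosome 3 share of 2.42%. Allowing no Kuramochi INX-315 peak left 394 members. Leaving out 1 library gave 500 to 1967 members, 42.5 to 53.9% without a Kuramochi peak, a median fold enrichment of 5.51 to 7.41, 90.0 to 91.4% of summits within 500 bp of a start, 6.67 to 20.4% of chromosome 3 promoters and an E2F share of 1.68 to 2.2%. The lowest member count was without Kuramochi INX-315 replicate 2 (500), the highest without OVCAR-3 INX-315 replicate 1 (1967). The share without a Kuramochi peak has no value when a Kuramochi INX-315 library is left out, since the rule then fixes it. The share of summits near a start was 93.2% with a promoter of 500 bp on each side, 95.9% with the summit inside the promoter, 87.1% with 1 canonical start per gene and 77.8% within 250 bp, and the E2F share was 3.51% in windows of 400 bp. These follow from the windows used. The member count stayed between 778 and 1123 under every alternative other than the 150, 394, 500 and 1967 above. With a median of 8 fragments at a replicate 1 summit, a missing peak in another library was not distinguishable from one too low to be called.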
